A study of Bombyx mori with 3 samples.

Results

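In the larval brain of the silkworm Bombyx mori, 76 of 17072 genes were far lower in replicate 1 than in both other libraries, and the P450 gene Cyp4g25 led them by level. The genes were chosen on that difference. Counts were divided by the library's sum and multiplied by 1000000 (CPM), and a gene entered if its mean count over the 3 libraries was at least 50 and its log2(CPM + 1) in replicate 1 lay at least 2 units under the lower of replicates 2 and 3, a difference called the gap below. The first condition was met by 9327 genes, called the tested genes. The 76 make up 0.815% of them, a share that the rule itself fixes and that carries no test.

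The 3 libraries are brains of wild-type (WT) larvae of strain P50, reared on mulberry leaves and taken on day 3 of instar 5, the feeding stage before spinning. They form 1 group, and the labels give no treatment, sex or dissection batch. Nothing in the labels says whether brains were pooled or came from separate sets of animals. The deposited counts totalled 19843776, 17935488 and 23895452 for replicates 1, 2 and 3, so replicate 1 lay between the others in depth. Fewer cells of a type and less RNA per cell cannot be told apart in such bulk samples.

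CYP4G enzymes are known from Drosophila as the decarbonylases of oenocytes, the cells that make the hydrocarbons that waterproof the cuticle. Oenocytes lie with the epidermis and fat body of the body wall and are rich in enzymes of fatty acid synthesis, elongation, reduction and transport. Epidermis makes chitin and cuticular proteins, and chemosensory proteins (CSPs), small soluble proteins with conserved cysteines, occur in cuticle-forming tissue as well as in sense organs. The brain itself is wrapped in glia and a sheath and lies among trachea, muscle, hemocytes and fat body.

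The low side belonged to replicate 1. By the same rule 0 of the tested genes were low in replicate 2, 0 were low in replicate 3, and 0 were high in replicate 1. The same distance above both other libraries was reached by 13 genes (0.139%) in replicate 2 and by 16 genes (0.172%) in replicate 3. At 1 log2 unit, 228 genes (2.44%) were low in replicate 1, against 0 in replicate 2 and 6 (0.0643%) in replicate 3. The gap of the 76 genes had a median of 2.81 and reached 8.53 log2 units, and over all tested genes its median was -0.09.

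**Figure D1:**
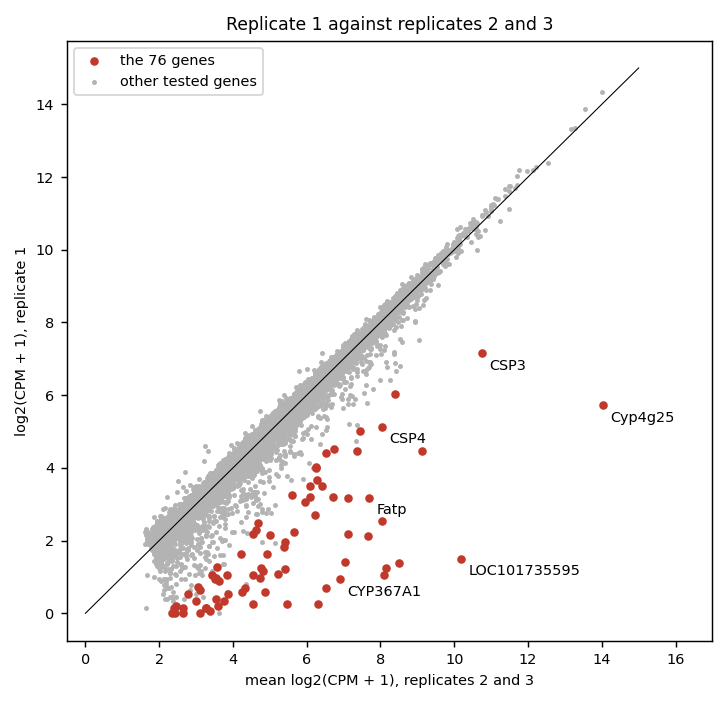
Each point is 1 of the 9327 tested genes, with its log2(CPM + 1) in replicate 1 on the vertical axis and its mean over replicates 2 and 3 on the horizontal axis; the line marks equal values. The 76 genes (red) lie under the line, with Cyp4g25, CSP3 and LOC101735595 at the high end.

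The genes were not all nearly absent from replicate 1. Their CPM there, as a percent of the mean of replicates 2 and 3, had a median of 3.99% and ranged up to 22.1%. Of the 76, 15 stood at 1% or less, 25 above that and up to 5%, 15 up to 10% and 21 up to 25%. Among them 4 had a count of 0 in replicate 1, which at 3 counts allows up to 0.151 CPM there, and 7 had 1 to 3 counts. LOC101745757, with 0, 130 and 190 counts in replicates 1, 2 and 3, was at least 47.9-fold lower in replicate 1 by that limit. For LOC101735921, LOC100852387 and LOC101743818, the others at 0, the bound was between 23.2-fold and 25.2-fold. These limits, and the intervals below, cover counting error only.

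Together the 76 genes took 0.0592% of the counts in replicate 1, 2.26% in replicate 2 and 2.80% in replicate 3. Cyp4g25 alone took 0.00516%, 1.49% and 1.87%, and the other genes together 0.0540%, 0.775% and 0.923% in the same order. Their median TPM, the deposited level per gene length, was 1.73, 29.9 and 40.6 in replicates 1, 2 and 3, where the median of all tested genes was 36.9, 37.8 and 38.4 TPM. In replicates 2 and 3 the genes therefore had a median close to that of the other tested genes, and the medians of all tested genes barely moved between libraries.

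Cyp4g25 measured 57.4, 17071 and 21774 TPM in replicates 1, 2 and 3. It was the gene of rank 3 by TPM in both of the higher libraries and of rank 3157 in replicate 1. The 1024 counts left in replicate 1 came to 0.307% of the mean CPM of the other libraries (exact Poisson 95% interval 0.289% to 0.326%). CYP367A1, another cytochrome P450, measured 0.517, 57.0 and 87.1 TPM in replicates 1, 2 and 3, with 18 counts in replicate 1, or 0.746% of the mean of the others (95% interval 0.442% to 1.18%). Both point values lay under 1%, and the interval of CYP367A1 reached past it.

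Of 25 tested P450 genes, 11 were lower in replicate 1 than in both others, where 3278 of all 9327 tested genes were. Among the 76 were 2 (8%, against 0.815% of all tested genes), both known to be in the set when the list was chosen. The median difference of the list, replicate 1 minus the mean of replicates 2 and 3, was -0.01 log2 units, against 0.04 for all tested genes. The abundant Cyp9g3 measured 965, 862 and 978 TPM in replicates 1, 2 and 3, and Cyp9a19 measured 282, 258 and 269 TPM. Without Cyp4g25 and CYP367A1 the summed TPM of the list was 1914, 1958 and 2050.3 in the 3 libraries.

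Genes of fatty acid handling added Fatp and Far to the set. Fatp, a transporter that also activates fatty acids to their CoA forms, measured 5.33, 124 and 163 TPM in replicates 1, 2 and 3, and 3.86% of its level was left in replicate 1 (95% interval 3.28% to 4.51%). Far, whose symbol is the usual one for fatty acyl-CoA reductases although the reference table names no product, had 2, 76 and 156 counts, or 0.0972, 4.22 and 6.57 TPM, and 1.87% left (95% interval 0.227% to 6.76%). With Cyp4g25 these were 3 of 7 tested genes of fatty acid and hydrocarbon synthesis (42.9%, against 0.815% of all tested genes). The list takes in the CYP4G family by name and was chosen with Cyp4g25 known to be in the set. Its share is therefore a description and no test. No matched gene had the symbol of a fatty acid synthase or elongase. The whole list had a median difference of -1.42.

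The other tested members of that list lay between Cyp4g25 and no difference. ACBP, the acyl-CoA-binding protein, measured 285, 772 and 819 TPM in replicates 1, 2 and 3. Cpr, the reductase that passes electrons to microsomal P450s, measured 100.02, 219.6 and 237 TPM, and the desaturase gene Desat3 measured 136, 234 and 285 TPM. DESAT4 measured 157, 158 and 171 TPM, so its libraries stood together. ACBP and Cpr were lower in replicate 1 by more than 1 log2 unit but missed the gap of 2. The remaining 4 matched genes, among them Desat1, had too few counts to be tested.

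**Figure D2:**
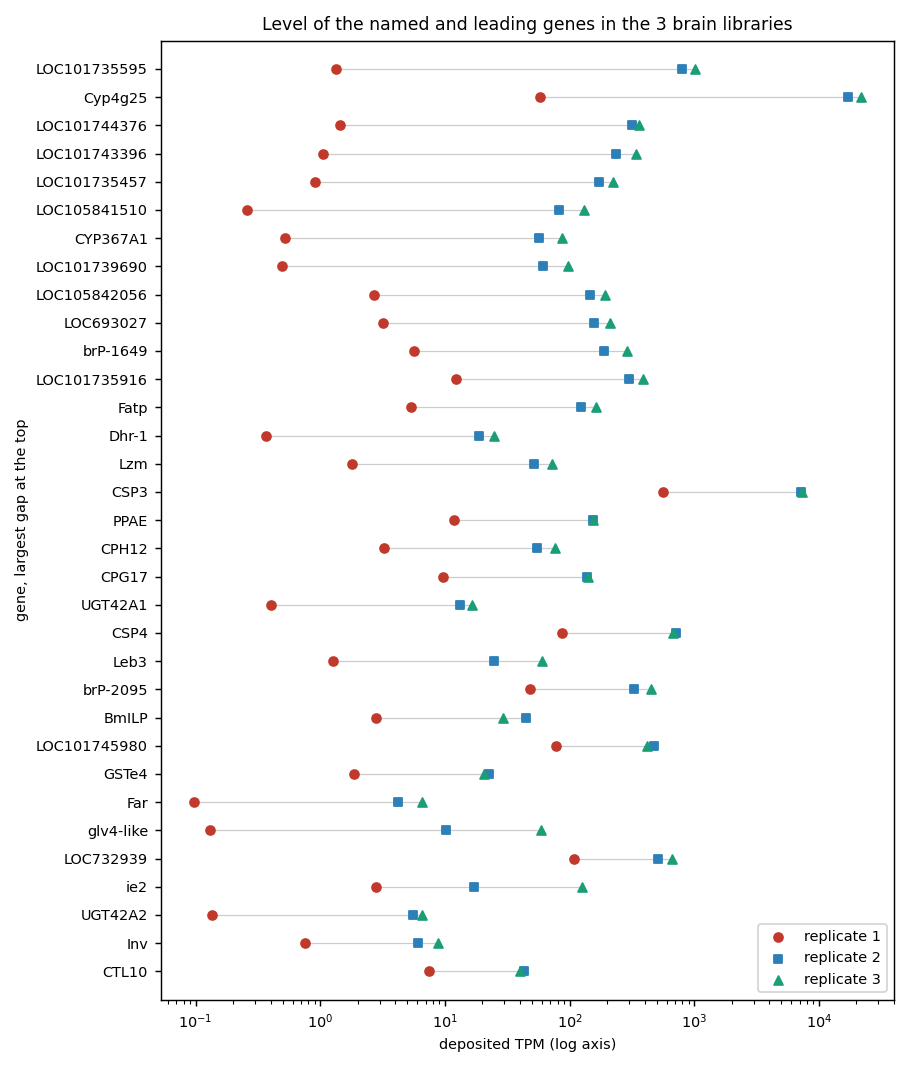
Deposited TPM on a log axis of the 33 genes of the 76 that have a descriptive symbol, are among the first 10 by gap, or are among the first 10 by mean TPM, ordered by gap from top to bottom; circles are replicate 1, squares replicate 2 and triangles replicate 3. The circle stands left of the other marks in every row, and squares and triangles mostly stand close together.

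CSP3, a chemosensory protein gene, was second by mean TPM among the 76. It measured 566, 7208 and 7319.99 TPM in replicates 1, 2 and 3, which left 8.09% in replicate 1 (95% interval 7.80% to 8.40%). CSP4 measured 86.97, 715 and 674 TPM, which left 13.0% (95% interval 12.04% to 14.03%). In both genes the higher libraries were nearly equal, and the share left was many times that of Cyp4g25, with intervals that do not meet.

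Of 9 tested CSP genes these 2 were among the 76 (22.2%, against 0.815% of all tested genes). Both were known to be in the set when the list was chosen, so this share is a description and no test. By 1 log2 unit, 5 of the 9, these 2 included, were lower in replicate 1 than in both others (against 2.44% of all tested genes). CSP5 measured 462, 1569 and 1288 TPM in replicates 1, 2 and 3. CSP8 measured 41.2, 59.7 and 48.2 TPM, a smaller distance. The median difference of the list was -1.15. CSP genes resemble each other in sequence, and any sharing of reads between them was not measured.

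Cuticular protein genes were lower in replicate 1 as a wide group but supplied few of the 76. Of 52 tested genes, 46 were lower in replicate 1 than in both others, where 3278 of all 9327 tested genes were. By 1 log2 unit it was 20 of 52 (against 2.44% of all tested genes), and by 2 units 3 of 52 (5.77%). These 3 were CPH12 with 3.26, 54.8 and 76.98 TPM, CPG17 with 9.69, 139 and 141 TPM, and LOC101745980, whose synonym is CPG33, with 78.1, 473 and 419 TPM in replicates 1, 2 and 3.

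Of the 6 most abundant cuticular genes by mean TPM, LOC101745980 was inside the set and the others missed the gap of 2. CPH27 measured 559, 3105 and 1410.2 TPM in replicates 1, 2 and 3. CPR46 measured 289, 853 and 679.9 TPM and CPR148 measured 213, 847 and 487 TPM, so both other libraries were higher, but by less than 2 log2 units. CPR65 had no count in replicate 1 and measured 331 TPM in replicate 2 and 5.64 TPM in replicate 3. CPH10 measured 2.26, 2.11 and 49.3 TPM. In CPR65 replicate 2 was the high library and in CPH10 replicate 3.

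Among genes of immune defence, Lzm, a lysozyme that breaks bacterial cell walls, measured 1.81, 52.1 and 71.6 TPM in replicates 1, 2 and 3. PPAE, a serine protease that activates prophenoloxidase, measured 11.7, 153 and 155 TPM, and the C-type lectin gene CTL10 measured 7.45, 43.4 and 39.6 TPM. The antimicrobial peptide genes Leb3, a lebocin, and glv4-like, a gloverin, measured 1.25, 24.7 and 60.2 TPM and 0.131, 10.2 and 59.4 TPM. PPAE and CTL10 were alike in the higher libraries, Lzm was higher in replicate 3 by 0.43 log2 units, and both peptide genes were far higher in replicate 3 than in replicate 2.

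The antimicrobial and lysozyme list matched 21 genes, of which 6 were tested. Of these 6, 3 were among the 76 (0.815% of all tested genes were), and 4 were lower in replicate 1 than in both others. The count filter shaped this share: glv4-like, with 1, 68 and 521 counts in replicates 1, 2 and 3, passed it only through replicate 3. The share is therefore a description and no test. CecD2, a cecropin under the identifier LOC101740228, measured 485, 795 and 430.1 TPM in replicates 1, 2 and 3, and Llp1 measured 41.1, 37.9 and 41.2 TPM. Defensin measured 20.9, 42.3 and 47.7 TPM, lower in replicate 1 with a gap of 0.81. PPO1, a prophenoloxidase gene of hemocytes, measured 3.14, 4.90 and 22.6 TPM, was high in replicate 3 only and was not among the 76.

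The named genes also held regulators. The homeobox gene Inv, invected, measured 0.753, 6.03 and 8.71 TPM in replicates 1, 2 and 3, and LOC101739896, whose synonym is En, measured 0.585, 6.08 and 7.50 TPM. In Drosophila invected and engrailed are a pair of neighbouring homeobox genes of the posterior compartment that are expressed together. Inv had 21, 147 and 280 counts and LOC101739896 had 19, 173 and 281 counts in the 3 libraries, so the values of the 2 genes nearly coincided. En is also listed as a synonym of Inv in the reference table, and whether the genes share reads was not measured.

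Dhr-1, a receptor for diapause hormone, measured 0.368, 18.8 and 24.8 TPM in replicates 1, 2 and 3, with 10 counts in replicate 1. BmILP, an insulin-like peptide gene by its symbol, measured 2.78, 44.5 and 29.2 TPM, and so was higher in replicate 2 than in replicate 3. The gene ie2 measured 2.79, 17.05 and 125 TPM, with replicate 2 also far under replicate 3. LOC778521, whose synonyms FaMeT6-1 and FaMeT6-2 are names for farnesoic acid methyltransferases of the juvenile hormone pathway, measured 1.82, 19.1 and 25.2 TPM.

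Conjugating enzymes were represented by 3 named genes. UGT42A1 and UGT42A2, UDP-glycosyltransferases that attach sugars, measured 0.404, 13.2 and 16.5 TPM and 0.135, 5.49 and 6.52 TPM in replicates 1, 2 and 3. UGT42A2 rested on 2 counts in replicate 1. GSTe4, an epsilon-class glutathione S-transferase, measured 1.87, 22.7 and 20.7 TPM. The neighbouring UGT42B1 measured 13.6, 13.6 and 12.2 TPM, so its libraries stood together. Counted after the values were seen, 2 of 13 tested genes with symbols starting with UGT were among the 76. For symbols starting with GST it was 1 of 14, against 0.815% of all tested genes. Ugt and Ugt3, tested and not among the 76, and genes with a locus number only were not counted. The median differences of the counted UGT and GST genes, -0.06 and -0.10, lay close to that of all tested genes (0.04). The brain cDNA genes brP-1649 (5.65, 187 and 286 TPM) and brP-2095 (48.3, 328 and 449.7 TPM) complete the genes with a descriptive symbol, whose products the reference table does not name.

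A descriptive symbol was available for 22 of the 76 genes, and 54 had a locus number only, so most of the set cannot be assigned a function here. LOC101735595 had the largest gap, 8.53 log2 units, with 1.35, 798 and 1011 TPM in replicates 1, 2 and 3. Its 36 counts in replicate 1 were 0.155% of its level elsewhere (95% interval 0.108% to 0.214%). LOC101744376 measured 1.45, 318 and 359.9 TPM, LOC101743396 measured 1.05, 234 and 340.1 TPM, and LOC101735457 measured 0.8999, 172 and 223 TPM. Of the first 10 genes by gap, all but Cyp4g25 and CYP367A1 have a locus number only, and in each of the 10 replicate 3 was above replicate 2 by at most 0.65 log2 units.

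LOC105841510 measured 0.258, 82.6 and 131 TPM in replicates 1, 2 and 3, and LOC101739690 measured 0.494, 60.9 and 96.8 TPM. LOC105842056 measured 2.68, 146 and 192 TPM, and LOC693027 measured 3.17, 156 and 209.9 TPM. By level, LOC732939 (109, 513 and 657 TPM) and LOC101735916 (12.3, 299.9 and 384 TPM) were also among the first 10. All of these were lowest in replicate 1, as the rule requires, and highest in replicate 3, which the rule does not require.

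At the edge of the rule the values were continuous. The last genes inside were LOC119629236 with a gap of 2.08 and 0.777, 9.08 and 11.8 TPM in replicates 1, 2 and 3, LOC101746878 with 46.7, 225 and 213 TPM, and LOC101745694 with 9.17, 41.3 and 52.5 TPM. The first outside were the cuticular gene CPH14 with a gap of 1.99 and 82.9, 351 and 818 TPM, LOC101736984 with 0.389, 3.32 and 2.72 TPM, and CPH3 with 12.1, 54.9 and 88.4 TPM. No break in the values separates the 76 genes from the next ones.

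The difference between replicates 3 and 2 was not part of the rule beyond the need that both be high, and it gives a second view of the set. Replicate 3 minus replicate 2 on log2(CPM + 1) had a median of 0.33 over the 76 genes (quartiles 0.12 and 0.46), against 0.01 over all tested genes (quartiles -0.07 and 0.09). Replicate 3 was higher by at least 0.25 in 46 of the 76 genes (60.5%), against 5.03% of all tested genes, and lower by at least 0.25 in 3 (3.95%), against 6.48%. There is 1 library on each side, so the difference has no replicate check and no test.

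Within the set this difference varied by gene group. Cyp4g25, CYP367A1, Fatp and Far lay between 0.33 and 0.59, and the first 20 genes by gap lay between 0.16 and 0.65. CSP3, CSP4, CPG17, CPH12 and LOC101745980 lay between -0.19 and 0.46 with a median of 0.00, and all but CPH12 were at 0.01 or below. The largest values were those of ie2 (2.77), glv4-like (2.25) and Leb3 (1.18), and the lowest those of LOC101744936 (-2.40), LOC101735351 (-0.96) and BmILP (-0.58). Over the 52 tested cuticular protein genes the median was -0.31, the opposite sign to that of the 76 genes.

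**Figure D3:**
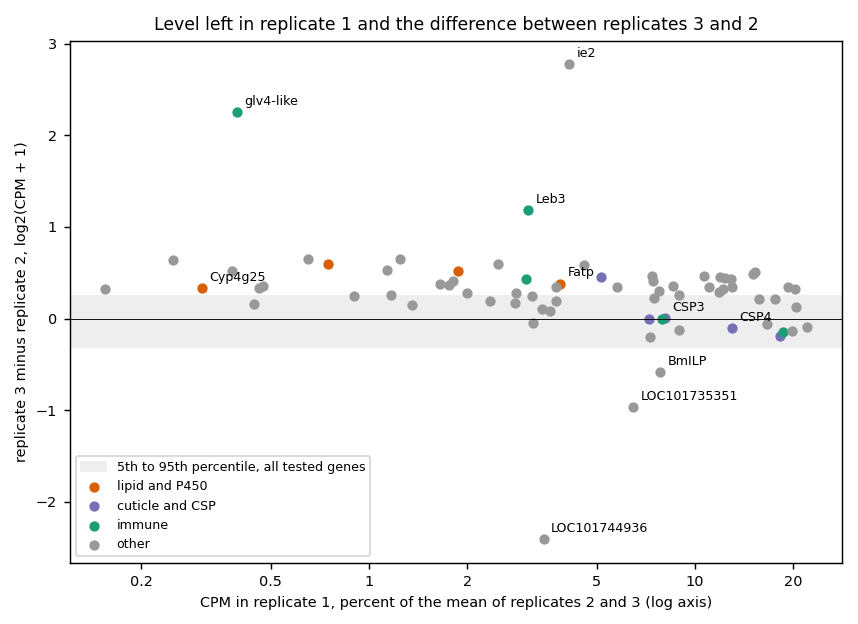
For the 72 of the 76 genes with a count in replicate 1, the horizontal log axis gives the CPM of replicate 1 as a percent of the mean of replicates 2 and 3, and the vertical axis the difference of replicate 3 minus replicate 2 on log2(CPM + 1); the band spans the 5th to the 95th percentile of all tested genes. Most points lie above zero, as does every point left of 2%, and ie2, glv4-like, Leb3 and LOC101744936 stand far from the rest.

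Lists of genes known from other cell types were measured beside the set, and their part in the low values of replicate 1 was not tested. Of all tested genes 0.815% were among the 76, so a count of 0 in lists this short, here and below, lies near that share. Neuronal genes did not separate the libraries: the summed TPM of 18 genes was 1268, 1255 and 1315 in replicates 1, 2 and 3, their differences of replicate 1 from the mean of the others ran from -0.35 to 0.25, and 0 were among the 76. The 3 glial genes, led by the glutamate transporter gene EAAT-1 (159, 152 and 158 TPM), summed to 213, 205 and 213 TPM, with 0 among the 76.

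Muscle genes fell into a part high in replicate 2 and a part that was not. The 7 matched genes summed to 5254, 10528 and 4943 TPM in replicates 1, 2 and 3, with 0 of 6 tested genes lower in replicate 1 than in both others and 0 among the 76. The actin gene A1 measured 1862, 4636 and 1907 TPM, and MLC-2, TpnI and Mf were likewise highest in replicate 2. AK, the arginine kinase, measured 1493, 1496 and 1265 TPM, Tm, tropomyosin, 65.1, 55.5 and 53.5 TPM, and A2 5.31, 3.98 and 4.21 TPM. Hemocyte genes summed to 76.4, 118 and 221 TPM, with Pp at 0 in every library. All 3 tested hemocyte genes were lower in replicate 1 than in both others, with a median difference of -0.95, and 0 were among the 76. NimB measured 46.3, 83.7 and 98.6 TPM, with both other libraries above replicate 1, while PPO1 and PPO2 (26.9, 29.6 and 100.2 TPM) were far higher in replicate 3 than elsewhere. Obp6, the 1 tested odorant-binding protein gene, measured 158, 789 and 334 TPM, a gap of 1.01.

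Fat body and hemolymph genes summed to 468, 485 and 563 TPM in replicates 1, 2 and 3, most of it serpin-1 (405, 402 and 453 TPM). Tf, the other of the 2 tested genes of this list, measured 59.5, 78.0 and 102 TPM. It was lower in replicate 1 than in both others, with a gap of 0.34. The storage protein genes Sp1 and Sp2 and the lipoprotein genes LP3, LP4, Lp-c6 and Lp-c23 stayed under 3 TPM in every library, and VG, the yolk protein precursor, was at 0. The tracheal gene trh, a transcription factor of tracheal fate, measured 6.71, 8.79 and 9.06 TPM, a small distance. Btl, the leading gene of the tracheal list by level, measured 25, 29.8 and 30.1 TPM, also a small distance. Midgut genes summed to at most 2.69 TPM and silk gland genes to at most 0.950 TPM in any library.

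The lists of cuticle tanning and of patterning and hormone response factors had smaller median differences than the cuticular proteins (-1.23). Which cells of these samples express the genes of both lists was not measured, so they are not values of epidermis alone. The 11 tested genes of cuticle tanning had a median difference of -0.40, and 0 were among the 76. Of the 11, 9 were lower in replicate 1 than in both others and 2 were higher. The leading genes of the tanning list by mean TPM had libraries that stood close together. Aanat measured 162, 147 and 152 TPM in replicates 1, 2 and 3, LOC101739336 59.4, 54.9 and 56.1 TPM, and Ebony 39.6, 43.9 and 45.2 TPM. Th, the tyrosine hydroxylase that makes DOPA and the next gene by level, measured 13.01, 24.8 and 33.7 TPM. Lac2, the laccase that hardens cuticle, measured 0.874, 1.16 and 1.16 TPM. Of the patterning and hormone response factors, Br-c (24.1, 25.1 and 23.8 TPM) and Ftz-f1 (14.1, 16.98 and 19.5 TPM) did not stand apart in replicate 1, and abd-A was at 0 in every library.

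Without their members among the 76, the lists of fatty acid and hydrocarbon synthesis, of chemosensory proteins and of cuticular proteins were still lowest in replicate 1. The first summed to 681, 1387 and 1514 TPM in replicates 1, 2 and 3. The second summed to 545, 1732 and 1428 TPM, most of it CSP5 (462, 1569 and 1288 TPM), and the third to 2312, 8577 and 6544 TPM. Replicate 2 was above replicate 3 in the sums of both these protein families, and replicate 3 above replicate 2 in the sum of the lipid genes. Being lowest in replicate 1 was not particular to these lists. Without members, the P450, tanning, tracheal, patterning and hormone response factor, hemocyte, endocrine gland, odorant-binding and fat body sums were lowest there too. Their distances varied: the P450 sum was 1914, 1958 and 2050 TPM and the fat body sum 468, 485 and 563 TPM. The hemocyte sum was 76.4, 118 and 221 TPM and the odorant-binding sum 164, 796 and 339 TPM. Midgut and silk gland sums, with no tested gene, were also lowest in replicate 1. The neuronal, glial, muscle and chitin enzyme sums were not lowest in replicate 1. The chitin enzyme list matched only 2 genes. Idgf, the 1 tested, made up nearly all of its sum (1588, 1471 and 1636 TPM), so that sum describes 1 gene. Without its members the antimicrobial and lysozyme list summed to 582, 935 and 553 TPM, lowest in replicate 3. Most of that sum was LOC101740228 (485, 795 and 430 TPM). Over the 6 tested genes of the list, members included, the median difference was -2.10.

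**Figure D4:**
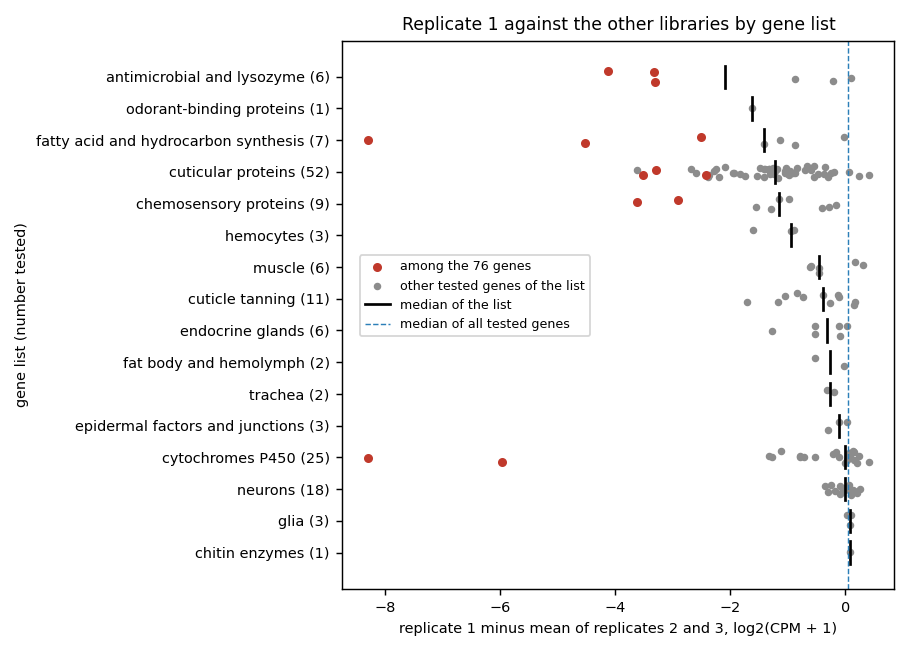
For each gene list with a tested gene, points give replicate 1 minus the mean of replicates 2 and 3 on log2(CPM + 1), red where the gene is among the 76 and grey where it is not; black bars are list medians and the dashed line is the median of all tested genes (0.04). Lists are ordered by median, with neurons and glia near the dashed line and the antimicrobial, odorant-binding, fatty acid, cuticular, chemosensory and hemocyte lists farthest to its left. Cyp4g25 stands in both the fatty acid and the P450 list.

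Some of the genes were neighbours in the genome. In the gene order of the reference assembly, 73 of the 76 genes could be placed, all of them protein-coding, as are 97.7% of the tested genes that matched. Of these 73, 18 (24.7%) had another of the set within 5 genes, and 271 of 8904 other tested genes (3.04%) had a gene of the set within that distance. How close other tested genes lie to each other was not measured. Directly adjacent to another of the set were 10 (13.7%), and 0.696% of the other tested genes were adjacent to one. No coordinates are given, since the build behind the counts is not named in the sources used here, and related neighbours that share reads would add to such counts.

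The 18 genes formed 8 stretches. The longest held LOC101743396, LOC101735788, LOC101735916 and LOC101744120 within 9 consecutive genes. Between them stood genes with level values in the 3 libraries, such as LOC101743537 (153, 160.4 and 155 TPM in replicates 1, 2 and 3) and LOC101743826 (51.7, 57.2 and 62.8 TPM). A further gene of the set, LOC101744837 (3.00, 23.5 and 29.2 TPM), lay 8 genes beyond. LOC101735595 and LOC101735457, with the first and the fifth gap, were the ends of a stretch of 6 genes, in which LOC101737765 measured 10.2, 10.2 and 7.96 TPM.

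CSP3 and CSP4 lay 3 genes apart, with CSP2 (0.849, 6.79 and 2.70 TPM) and CSP1 (0.288, 0.329 and 0.375 TPM) between them and CSP5, also lower in replicate 1, next to CSP3. CSP2 rested on few counts and was not tested. Inv lay next to LOC101739896, and UGT42A1 lay 2 genes from UGT42A2. Cyp4g25 lay next to LOC101735921, which had 0, 79 and 91 counts, and 9 genes from brP-2095. The gene bodies of Cyp4g25 and LOC101735921 do not overlap in the reference used. Whether reads running out of Cyp4g25, which had up to 447910 counts, entered its neighbour was not measured, and the strand setting of the counting is not given.

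**Figure D5:**
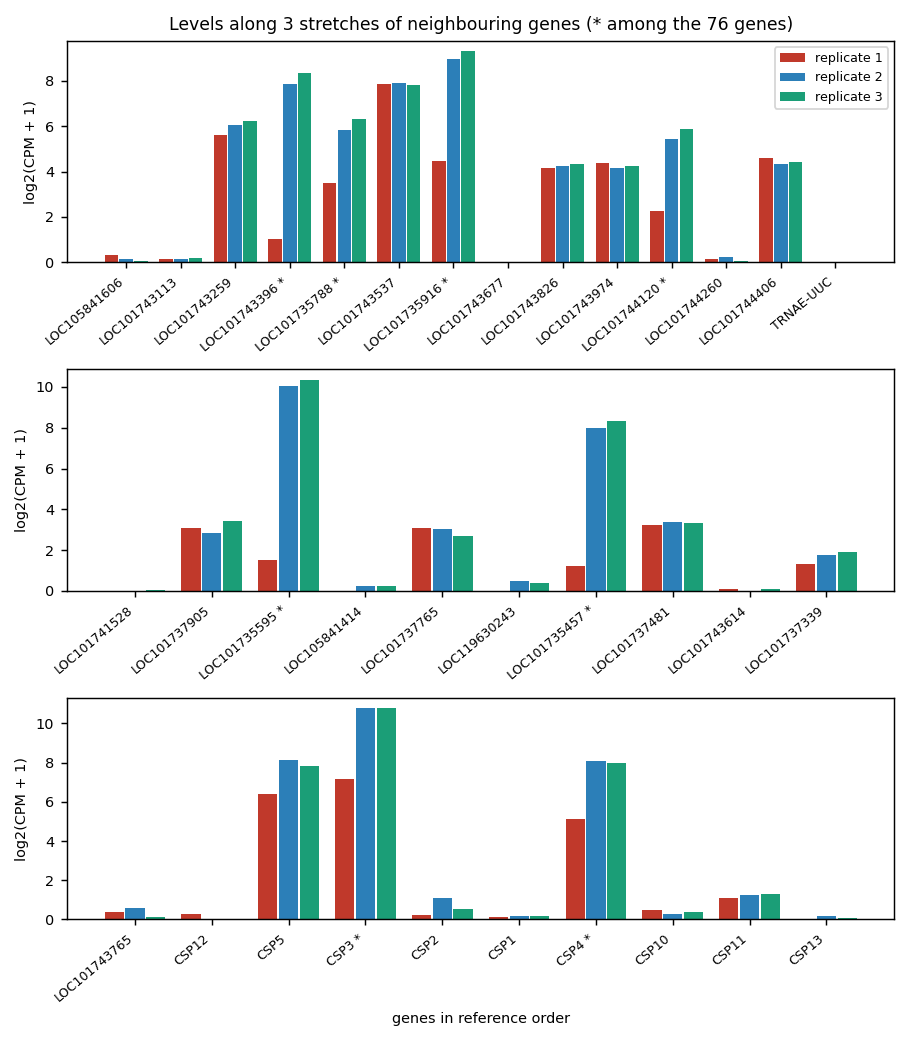
Bars give log2(CPM + 1) in replicate 1 (red), replicate 2 (blue) and replicate 3 (green) for genes in reference order along 3 stretches, with asterisks on genes of the set; genes of the reference that the count table lacks are left out. Genes with asterisks have a short red bar beside taller blue and green ones, and in the upper and middle panels the expressed genes between them have bars of nearly equal height.

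The gene lengths implied by counts and TPM had a median over the 76 genes of 0.742 times the median of all tested genes, with quartiles of 0.493 and 1.20, against 0.613 and 1.62 over all tested genes. Length does not enter the comparison of 1 gene between libraries. It bears on the order of the levels: by TPM, the first 4 genes were Cyp4g25, CSP3, LOC101735595 and CSP4.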

How the data were processed

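Trimming, alignment and counting tools (Trim Galore, HISAT2, featureCounts) are listed in the submitters' processing notes with no version. Neither the genome build, the annotation nor the strand setting is given there. The authors deposited raw counts per gene and TPM per gene, 1 column per library, per the file headers. CPM was each count divided by its column sum, times 1000000, and differences were taken on log2(CPM + 1), which understates those of low genes. Identifiers were matched by gene number to RefSeq genes (assembly ASM3026992v2), which served for names and gene order: 14944 of 17072 matched, 73 of them among the 76 genes, and 3 of the 76 did not.

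The genes and the 18 gene lists were chosen with earlier results of these data known. Lists were matched by symbol or synonym, and 3 wrong matches (RpP0, FaR and LOC692685) were taken out after they were seen. Genes named are those with a descriptive symbol, the 10 first by gap and by TPM, those at the threshold and the leading genes of each list; others named were chosen after their values were seen. The labels name no contrast and the genes were chosen on replicate 1, so no test between libraries was made. Intervals are exact Poisson 95% intervals of the count in replicate 1. The selection was tested on simulated data. TMM factors came from edgeR 4.0.16 and size factors from DESeq2 1.42.0 in R 4.3.3; computing used Python 3.11.15, NumPy 2.4.6, pandas 2.3.3 and SciPy 1.17.1. Promoter motifs were not analysed here, because no sequence was used.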

Additional observations from a re-analysis of the deposited data

How the results depend on the processing

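The set of 76 genes was almost the same under other scalings: 77 genes with TMM or DESeq2 size factors and 87 on the deposited TPM, of which 76, 76 and 75 were the same genes. Without the filter on low counts it was the same 76. The count moved to 38 with a pseudocount of 5, to 228 at a gap of at least 1 and to 34 at a gap of at least 3, as the construction of these settings implies, and was 111 with a pseudocount of 0.1. Leaving out replicate 2 or replicate 3 gave 109 to 114 genes and a median gap of 2.88 to 2.97; replicate 1 cannot be left out. The median gap of 2.81 moved to 3.18 with a pseudocount of 0.1 and to 3.34 with a mean count of at least 200, where fewer low genes enter. The median of replicate 3 over replicate 2 lay between 0.32 and 0.34 under every alternative run. With symbols only, 2 cuticular and 2 antimicrobial genes were counted in place of 3 each. The planned promoter motif shares were not run. No paired analysis was possible because there is 1 group. Depth limits the 11 genes with 3 or fewer counts in replicate 1, whose values are bounds or have wide intervals.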
